A study of Mus musculus with 4 samples.

Results

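Among the day 6 cells of mouse gastruloids, 182 of 5850 held at least 3 unique molecular identifiers (UMIs, each counting 1 captured transcript) of *Wfdc2* and none of *Sox17*, *Foxa1* or *Foxa2*. These 182 cells, called the members here, made up 3.11% of the kept cells of that day (exact 95% binomial interval 2.68 to 3.59%). The kept cells were those with 2000 or more UMIs and a mitochondrial share under 20%. They were compared with the other 5668 kept cells of day 6, and with 42 cells that also held at least 3 *Wfdc2* UMIs but had 1 or more UMIs of the 3 endoderm genes. Most members carried nephric genes: 108 of 182 had UMIs of at least 2 of *Pax2*, *Pax8* and *Lhx1*, against 89 of 5668 other cells.

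Gastruloids are aggregates of embryonic stem cells that elongate and form derivatives of the germ layers in culture. All groups used here came from 1 wild type mouse embryonic stem cell line, Zx1, exposed to a Wnt agonist early in culture and to bFGF, VEGF and ascorbic acid from day 4. Single-cell RNA libraries of pooled gastruloids were made at days 4, 5, 6 and 11, with 1 library per day. There was therefore no replicate, no test was possible, and every interval given covers counting error only.

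*Wfdc2* encodes a small secreted protein with whey acidic protein (WAP) domains and is known from many epithelia, including those of the kidney and airways. Since gut endoderm is a source of such epithelia, the rule leaves out cells with a UMI of *Sox17*, *Foxa1* or *Foxa2*, transcription factors of the endoderm. Endoderm cells in which none of these was detected would remain. In the embryo the kidney begins in the intermediate mesoderm, a strip between the somites and the lateral plate, where cells that express *Pax2*, *Pax8* and *Lhx1* form the nephric duct. This duct is an epithelial tube that grows towards the tail and later buds into the metanephric mesenchyme. *Gata3*, *Emx2* and the receptor pair *Ret* and *Gfra1* are among the genes known to act in it.

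*Wfdc2* (ENSMUSG00000017723) lies on chromosome 2, from 164562413 to 164568510 on the plus strand of GRCm38 (the mm10 build). The rule used its UMIs, so the members were chosen by this level, which is given as a description. In the members it stood at 353 CPM (UMIs of the gene scaled to a group total of 1000000 UMIs), in the other day 6 cells at 6.20 CPM. A member held between 3 and 75 *Wfdc2* UMIs, with a median of 8. Just inside the threshold were 36 members with 3 UMIs, and just outside it were 75 cells with 2 UMIs and none of the endoderm genes. The members held 69.6% of all 3547 *Wfdc2* UMIs of the kept day 6 cells.

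A threshold in UMIs favours deeply sequenced cells. The median depth was 30432.5 UMIs in the members and 25449.5 UMIs in the other cells, and 78722.5 UMIs in the *Wfdc2* cells with endoderm UMIs. The mitochondrial share was alike, with a median of 3.04% in members and 2.83% in other cells. Shares of cells positive for a gene are therefore also given after every cell had been thinned at random to 5000 UMIs. All 182 members were deep enough for this. No day 6 barcode of a member was shared with day 4 or day 11, and 1 was shared with day 5.

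The nephric genes named by the rule for the check were higher in the members than in other day 6 cells. *Pax2*, a paired box gene of the duct, stood at 53.4 CPM (exact 95% Poisson interval 48.1 to 59.1) in members and 2.01 CPM in other cells. *Pax8*, its close relative, stood at 52.0 CPM (46.7 to 57.6) against 3.42 CPM. *Lhx1*, a LIM homeobox gene, stood at 39.8 CPM (35.3 to 44.8) against 2.51 CPM. The ratio of the plain levels was 26.6 for *Pax2* (exact conditional binomial interval 22.9 to 30.9), 15.2 for *Pax8* (13.3 to 17.3) and 15.9 for *Lhx1* (13.6 to 18.5). For ranking, 10 CPM was added to both sides so that genes of few UMIs do not lead, and a gene was counted as past the fold at a ratio of 2 or more, or of 0.5 or less. On that scale the ratios were 5.28, 4.62 and 3.98.

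These genes were found in a large part of the members and in few other cells. *Pax2* had a UMI in 113 of 182 members (62.1%) and in 2.96% of other cells. *Pax8* was found in 68.7% of members and 4.29% of other cells, and *Lhx1* in 33.5% and 4.53%. As a measure of background, endothelium-like cells of the same library should lack these genes. These were a Leiden cluster of 466 cells with all 8 endothelial markers raised and a median of 37312 UMIs, and they held *Pax2* in 1.93%, *Pax8* in 2.36% and *Lhx1* in 1.93% of cells. In a cardiomyocyte-like cluster of 452 cells *Lhx1* was found in 10.2%, above its share in other cells as a whole. After thinning, *Pax2* was found in 19.2% of members against 0.648% of other cells, *Pax8* in 20.9% against 1.31% and *Lhx1* in 13.7% against 0.900%.

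Read per cell, 47 members held UMIs of all 3 genes, 61 of exactly 2, 36 of 1 and 38 of none. The share with at least 2 was 59.3% in members (51.8 to 66.5%) and 1.57% in other cells (1.26 to 1.93%). It was 0.858% in the endothelium-like and 0.885% in the cardiomyocyte-like cells, which had a median of 23779.5 UMIs. The share was higher in some other clusters of the clustering given below. In cluster 11, named intermediate mesoderm and nephrogenic mesenchyme-like, 12 of 290 cells (4.14%) held at least 2. *Pax8* stood at 22.1 CPM in that cluster. In cluster 1, 39 of 800 cells (4.875%) held at least 2, and 11 of these were members. Thinned to 5000 UMIs, 19 of 182 members (10.4%) still held at least 2 of the genes, against 9 of 5553 other cells (0.162%). None of 464 thinned endothelium-like cells did, which allows a share of up to 0.647%.

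The share with at least 2 nephric genes was larger in cells with more *Wfdc2*. Among cells without endoderm UMIs it was 45 of 4502 cells (0.9996%) at 0 *Wfdc2* UMIs, 5.00% at 1 UMI and 10.7% at 2 UMIs. Inside the threshold it was 13.9% at 3 UMIs, 31.2% at 4, 62.2% at 5 to 9, 80.9% at 10 to 19 and 84.2% at 20 or more. Cells with 3 UMIs were thus close to those just outside the threshold, with overlapping intervals (4.67 to 29.5% and 4.72 to 19.9%). Median depth rose with the share over the low bands, from 23790.5 UMIs at 0 to 30008.5 at 1 and 37063 at 2. Above these it was 30988 UMIs at 3, 38076 at 4, 23836 at 5 to 9, 28566 at 10 to 19 and 37187 at 20 or more. Thinned to 5000 UMIs, the share was 0.114% at 0, 0.560% at 1 and 0% at 2 *Wfdc2* UMIs, and the order of the bands at 1 and 2 UMIs was thus not kept at equal depth. Inside the threshold the thinned share was 2.78% at 3, 6.25% at 4, 8.89% at 5 to 9, 12.8% at 10 to 19 and 18.4% at 20 or more. These bands held 36, 16, 45, 47 and 38 cells, and the band at 2 UMIs held 75. The thinned shares, given without intervals, therefore rest on few cells.

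**Figure D1:**
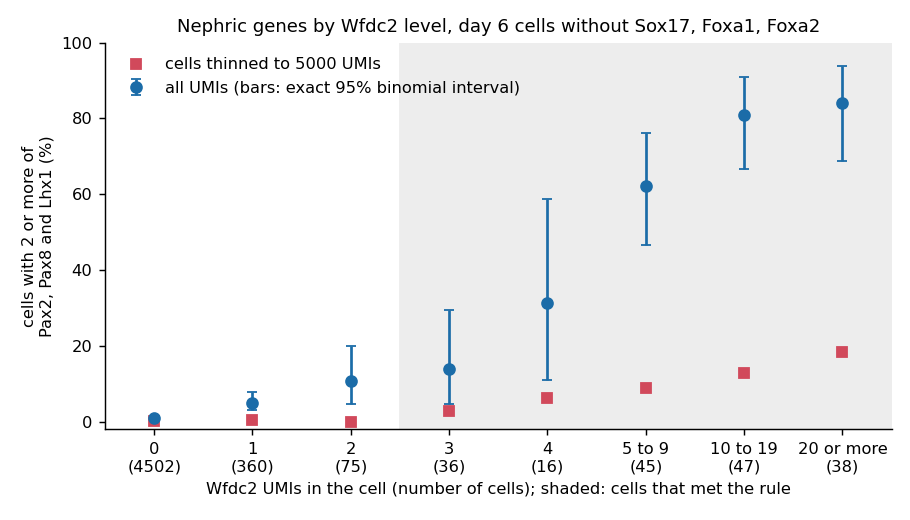
Share of day 6 cells without *Sox17*, *Foxa1* and *Foxa2* UMIs that held at least 2 of *Pax2*, *Pax8* and *Lhx1* (y axis, %), by the number of *Wfdc2* UMIs of the cell (x axis, number of cells in brackets). Circles are full-depth cells with exact 95% binomial intervals, squares are cells thinned to 5000 UMIs, and the shaded bands met the rule. The share goes from 0.9996% at 0 UMIs to 84.2% at 20 or more.

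Across all 22844 genes with a UMI in day 6 cells, 73 (0.320%) were past the fold as higher in members and 106 (0.464%) as lower, and the median ratio was 0.999. The 16 listed nephric duct genes all lay above 1, 7 of them past the fold and none lower, with a median ratio of 1.59. Besides *Pax2*, *Pax8* and *Lhx1*, these 7 included *Emx2*, *Sim1* and *Gfra1*. *Emx2*, a homeobox gene of the urogenital system, stood at 39.8 CPM in members and 2.32 CPM in other cells, and *Sim1*, a transcription factor, at 35.5 against 1.97 CPM. *Gfra1*, the GDNF co-receptor, stood at 14.7 CPM against 1.29 CPM.

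The remaining 9 genes of the list stayed under the fold. *Gata3*, a zinc finger factor of the duct, stood at 30.2 CPM in members and 13.5 CPM in other cells, where 30.7% of the endothelium-like cells also held it. *Ret*, the receptor through which GDNF acts, was at 2.72 CPM against 1.41 CPM, found in 7.14% of members. *Wnt9b*, a signal of the duct to the surrounding mesenchyme, was at 2.15 CPM against 0.0575 CPM, and *Calb1*, a calcium-binding protein of later ducts, had 3 UMIs in all members. *Wnt11*, a ligand of the duct tip, was at 6.73 CPM against 4.02 CPM, though 30.5% of the cardiomyocyte-like cells held it too, at 20.4 CPM. *Etv4* and *Etv5*, which respond to FGF and RET signals, were at 31.3 against 19.4 CPM and 18.2 against 11.9 CPM.

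Genes of the intermediate mesoderm and nephrogenic mesenchyme, the tissue beside the duct that forms nephrons, were less uniform. Of 13, 1 was past the fold as higher and none as lower, with a median ratio of 1.09. This was *Cited1*, a transcriptional coregulator of nephron progenitors, at 91.3 CPM in members and 27.7 CPM in other cells, though 42.0% of the cardiomyocyte-like cells held it too. *Gdnf*, the ligand of RET, was at 6.58 CPM against 0.718 CPM, and *Sall1*, a zinc finger gene of the kidney, at 52.1 against 21.7 CPM. *Osr1*, one of the first genes of the intermediate mesoderm, was at 25.9 against 24.6 CPM, and *Wt1*, of the nephrogenic and mesothelial lineages, at 13.6 against 23.7 CPM. *Six2*, which marks the nephron progenitors of the metanephros, had 11 UMIs in members, *Hoxd11* had 2 and *Hoxc11* none (limit of 0.429 CPM).

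**Figure D2:**
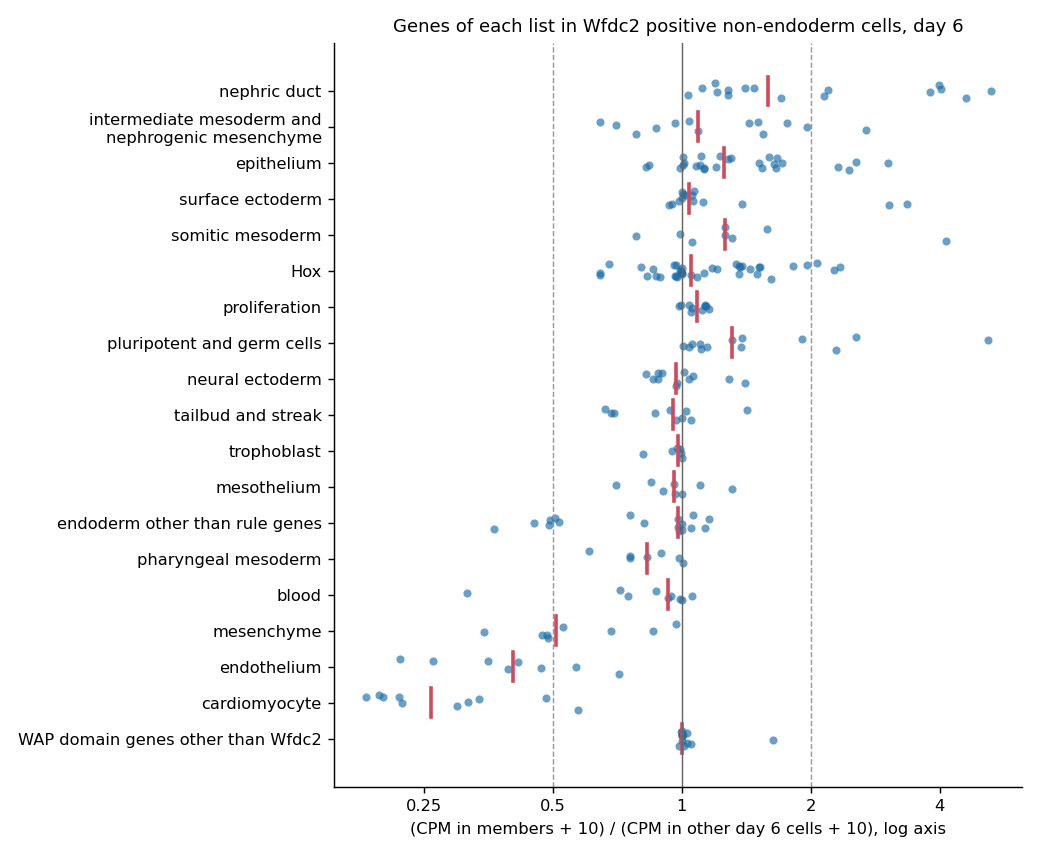
Ratio of each listed gene in the members over other day 6 cells with 10 CPM added to both sides (x axis, log scale), 1 point per gene with a UMI, by gene list (y axis). Red bars are list medians and dashed lines mark 0.5 and 2. The nephric duct list has 7 genes beyond 2 and a median of 1.59, and the cardiomyocyte list lies lowest with a median of 0.260.

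Epithelial genes were partly higher. Of 26, 4 were past the fold as higher and none as lower, with a median ratio of 1.26. They were *Epcam*, a surface protein of epithelia (83.2 CPM in members, 27.9 CPM in other cells), the tight junction gene *Cldn7* (45.4 and 11.7 CPM), the protease inhibitor gene *Spint2* (83.0 and 20.6 CPM) and the polarity gene *Crb3* (22.9 and 4.19 CPM). E-cadherin, *Cdh1*, was at 9.30 against 2.75 CPM and found in 18.7% of members. Among keratins of simple epithelia, the pooled levels of *Krt8* and *Krt18* were not higher. *Krt8* stood at 63.3 CPM in members and 77.5 CPM in other cells, and *Krt18* at 47.4 and 59.7 CPM. Both were nevertheless found in a larger share of members, *Krt8* in 50.5% against 35.1% and *Krt18* in 51.6% against 23.9%. After thinning, the shares were 23.6% against 17.1% for *Krt8* and 19.2% against 11.0% for *Krt18*. *Krt19* stood at 18.0 against 15.4 CPM and *Krt7* at 3.01 against 2.91 CPM. *Vim*, an intermediate filament gene of mesenchyme, was lower at 518 against 1527 CPM.

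The 42 *Wfdc2* cells with endoderm UMIs were a mixed set. In the clustering given below, 20 lay in cluster 15, named epithelium-like, 7 in the endothelium-like cluster and 5 in cluster 14. A further 3 lay in cluster 17, led by *Dppa5a*, and 2 in the cardiomyocyte-like cluster, with the rest elsewhere. Pooled, the 42 cells held the cardiac gene *Myl7* at 733 CPM and the endothelial gene *Cdh5* at 39.2 CPM. Against them, the epithelial genes were lower in the members. In that comparison 36 of 17956 genes (0.200%) were past the fold as higher in members and 139 (0.774%) as lower. Of the 26 epithelial genes, 14 were past it as lower and none as higher. *Epcam* was at 83.2 CPM in members and 349 CPM in the cells with endoderm UMIs, *Krt18* at 47.4 and 332 CPM, and *Cldn6*, another tight junction gene, at 22.2 and 120 CPM. The rule excluded the endoderm genes themselves, but other genes of that lineage were lower as well. *Spink1*, *Rbp4* and *Pyy*, known from gut and its outgrowths, were at 3.58, 8.73 and 1.43 CPM in members and at 254, 219 and 133 CPM in the other set. *Nepn*, a gene of the gut endoderm, had no UMI in members (limit of 0.429 CPM) and stood at 118 CPM there.

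The nephric genes were higher in the members also in this comparison. *Pax2* stood at 53.4 CPM against 19.7 CPM, *Pax8* at 52.0 against 15.1 CPM and *Lhx1* at 39.8 against 10.2 CPM, and 3 of the 16 duct genes were past the fold. At least 2 of the 3 were found in 10 of 42 cells with endoderm UMIs (23.8%, 12.1 to 39.5%), which were the deeper cells. *Pcp4*, a calmodulin-binding protein gene, led the genes higher in members (255 against 36.8 CPM), followed by *Sfrp2*, a secreted inhibitor of Wnt signals (353 against 82.7 CPM), *Emid1* (77.4 against 16.8 CPM) and *Wnt4*, a ligand that drives the epithelial change of nephron precursors (55.8 against 11.6 CPM).

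Beyond the listed genes, the members had a set of leading genes. After *Wfdc2*, the highest ratios over other day 6 cells belonged to *Pcp4* (255 CPM in members, 27.2 CPM in other cells), *Sfrp2* (353 and 51.0 CPM) and *Rmst*, a long non-coding RNA (58.1 and 2.34 CPM). *Sfrp2* was found in 87.9% of members but also in 40.4% of other cells, whereas *Rmst* was found in 91 of 182 members and in 3.25% of other cells. *Clec18a*, a lectin-like gene, was at 36.6 against 1.05 CPM, and *Plet1*, a surface protein gene, at 30.9 against 0.420 CPM. *Plet1* therefore had one of the largest ratios of plain levels, 73.7 (56.3 to 97.4), and was found in 34.6% of members.

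Ligands and regulators of growth were among the same leading genes. *Fgf9*, an FGF ligand, stood at 34.6 CPM in members and 4.28 CPM in other cells, *Wnt4* at 55.8 and 11.5 CPM, and *Pdgfa*, a ligand of the PDGF receptors, at 74.3 and 18.4 CPM. *Ccnd1*, which encodes cyclin D1, was at 457 against 123 CPM. The 10 genes of the proliferation list did not move with it: none was past the fold and their median ratio was 1.08, with *Mki67* at 122 against 123 CPM. Transcription factors in the set included *Pou3f3* (28.9 and 3.47 CPM), a POU gene of the kidney and brain, and *Uncx* (57.1 and 6.19 CPM), a homeobox gene of the somites and the mesonephros.

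*Tfap2a* and *Tfap2b* were also among the leading genes, at 29.6 CPM in members against 1.80 CPM in other cells and at 24.0 against 1.16 CPM. Both AP-2 factors are known from surface ectoderm and neural crest, and *Tfap2b* also from the distal nephron. The rest of the surface ectoderm list did not follow: 2 of 14 genes with a UMI were past the fold and the median ratio was 1.04. *Trp63*, the defining factor of stratified epithelia, *Wnt6*, *Krt5* and *Krt14* had no UMI in any member. They do not set the members apart, since the 5668 other cells held 1 UMI of *Trp63*, 24 of *Wnt6* and none of the 2 keratins. Trophoblast genes had a median ratio of 0.982 with none past the fold.

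Other WAP domain genes were close to absent. Of 18, 13 had a UMI in day 6 cells, and 7 of these had none in the members. *Wfikkn1*, a protease inhibitor with a WAP domain, was the exception at 18.6 CPM in members and 7.54 CPM in other cells, under the fold.

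Cardiac, endothelial and mesenchymal genes were lower. Of 10 cardiomyocyte genes, 9 were past the fold as lower, with a median ratio of 0.260. *Myl7*, the atrial light chain, stood at 205 CPM in members and 1086 CPM in other cells, and *Tnnt2*, cardiac troponin T, at 71.0 and 360 CPM. Of 8 endothelial genes, 6 were past the fold as lower (median ratio 0.403), among them *Cdh5*, VE-cadherin, at 1.15 against 40.8 CPM. Of 8 mesenchyme genes, 4 were lower (median ratio 0.508), with *Twist1* at 72.6 against 166 CPM and *Pdgfra* at 21.0 against 53.7 CPM. The rule bears on the endothelial genes, since *Sox17* is also an endothelial gene and was found in 88.4% of the endothelium-like cells.

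The levels of *Myl7*, *Tnnt2*, *Cdh5*, *Twist1* and *Pdgfra* in members rested largely on cells with high doublet scores. Doublets, droplets with more than 1 cell, were left in, since the automatic threshold of the doublet caller marked 0 cells and so did not work. Of the 480 cells with the highest scores, 32 were members, which is 17.6% of the members where 8% of all cells were so marked. These 32 cells held 1273 of the 1429 *Myl7* UMIs of the members and 454 of the 496 of *Tnnt2*. Without the 480 cells *Myl7* stood at 32.2 CPM in members against 1049 CPM in other cells, *Tnnt2* at 8.67 against 359 CPM, *Twist1* at 35.7 against 167 CPM, *Pdgfra* at 8.87 against 54.5 CPM and *Vim* at 339 against 1535 CPM. The cardiomyocyte median was then 0.080, with all 10 genes past the fold as lower, and the mesenchyme median 0.356, with 5 of 8. The nephric genes were higher without these cells, with ratios of 6.32 for *Pax2*, 5.68 for *Pax8* and 4.84 for *Lhx1* with 10 CPM added.

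The somitic and other lists had few genes past the fold. Of the 8 somitic genes only *Uncx* was past the fold, but 6 lay above 1. The somitic median ratio was 1.26, like that of the epithelium list, and 1.37 without the cells of highest doublet score. *Meox1* stood at 61.5 CPM in members and 35.2 CPM in other cells and *Tcf15* at 20.3 and 18.7 CPM. The neural (median ratio 0.971), tailbud (0.952), mesothelial (0.961) and pharyngeal mesoderm (0.831) lists had no gene past the fold in either direction. The blood list (0.928) had 1 gene lower, *Hba-x*, and the endoderm list without the rule genes (0.980) had 4 lower and none higher.

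*Hox* genes, which are used along the body axis in the order of their paralog groups, were higher in members from group 3 to group 9. Summed over the genes of a group, the ratio was 1.60 for group 3, 1.45 for group 4, 1.73 for group 5 and 1.55 for group 6. The highest ratio was that of group 7, which stood at 125 CPM in members and 50.8 CPM in other cells (ratio 2.45, 2.29 to 2.63). Group 8 stood at 159 against 88.8 CPM (ratio 1.79), and group 9 at 236 against 160 CPM (ratio 1.48). Groups 10 and 11 were lower, at 34.8 against 65.5 CPM and 0.859 against 8.55 CPM, and groups 12 and 13 had no UMI in members, against 0.0345 and 0.828 CPM. Groups 1 and 2 were close to the other cells, with ratios of 0.986 and 1.12. The 3 *Hox* genes past the fold were *Hoxb6*, *Hoxb7* and *Hoxb8*, joined by *Hoxa7* and *Hoxb9* without the cells of highest doublet score, while the paralogs *Hoxc6* and *Hoxc8* had ratios of 1.13 and 0.992 with 10 CPM added. The *Wfdc2* cells with endoderm UMIs were near the members at group 7 (127 CPM), group 6 (87.0 against 91.6 CPM) and group 9 (211 against 236 CPM). They were lower at group 3 (61.8 against 101 CPM) and group 5 (37.1 against 61.0 CPM).

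**Figure D3:**
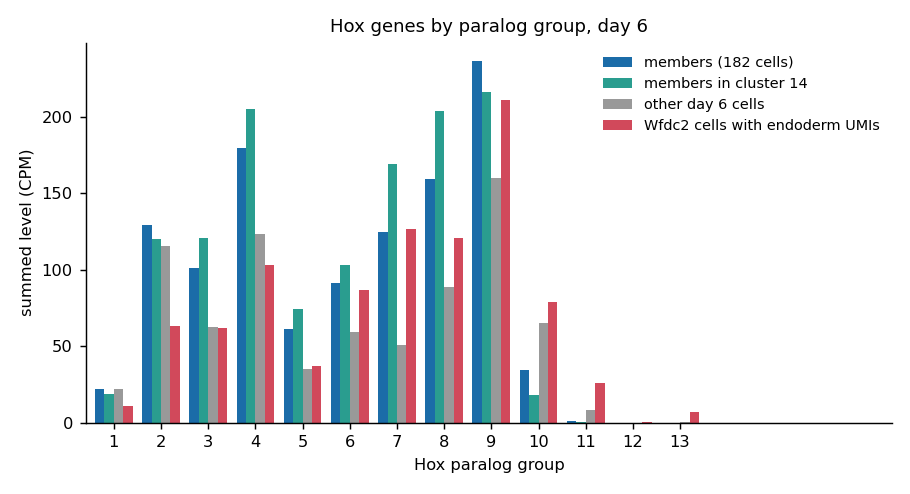
Summed level of the *Hox* genes of each paralog group (x axis, 1 to 13; y axis, CPM) at day 6 in the members, in the members of cluster 14, in other cells and in *Wfdc2* cells with endoderm UMIs. Members are above other cells at groups 3 to 9, with the highest ratio (2.45) at group 7 (125 against 50.8 CPM), and fall below them at group 10 (34.8 against 65.5 CPM).

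To see whether the members were 1 kind of cell, the day 6 cells were clustered after *Wfdc2*, the 3 endoderm genes and all listed genes had been left out of the variable genes. Of 17 clusters, cluster 14 held 108 of the 182 members (59.3%, 51.8 to 66.5%), which made up 67.9% of its 159 cells. At resolution 0.5 the cluster with most members held 115 of them among 468 cells, and at resolution 2 it held 108 among 184 cells. Cluster 14 was nephric duct-like by 9 raised markers of that list, with 6 raised markers of the next list. Its leading genes were *Wfdc2*, *Sfrp2* and *Pcp4*. Cluster 1, of 800 cells and led by *Osr1* and *Meox1*, held 27 members and was left unnamed. Cluster 17 held 6, and the remaining 41 were spread over 14 clusters.

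Within the members, the nephric genes went with cluster 14. At least 2 of *Pax2*, *Pax8* and *Lhx1* were found in 83 of the 108 members in cluster 14 (76.9%, 67.8 to 84.4%) and in 25 of the 74 outside it (33.8%, 23.2 to 45.7%). Without the cells of highest doublet score the counts were 77 of 99 (77.8%) and 10 of 51 (19.6%, 9.82 to 33.1%). The members outside were deeper, with a median of 45257.5 UMIs against 25780.5 UMIs, and held less *Wfdc2*, with a median of 4 UMIs against 12. After thinning, the counts were 19 of 108 and 0 of 74, the latter allowing a share of up to 4.05%. *Pax2* stood at 88.1 CPM in cluster 14 members, 30.9 CPM in cluster 1 members, 21.8 CPM in those of the remaining clusters and had no UMI in those of cluster 17. *Lhx1* was at 75.8, 2.75 and 14.6 CPM in the same order, again with no UMI in cluster 17.

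The 27 members in cluster 1 thus held *Pax8* (39.9 CPM, 18 of 27 cells) with little *Lhx1* (2 cells) and little *Epcam* (8.25 CPM, against 137 CPM in cluster 14 members). *Osr1* was at 50.2 CPM in them and at 16.6 CPM in cluster 14 members. The 41 members of the remaining clusters had *Myl7* at 581 CPM, but 2 of them, both in the cardiomyocyte-like cluster 6, held 844 of the 1117 *Myl7* UMIs, whereas the median was 1 UMI and 16 of the 41 had none. *Twist1* stood at 123 CPM in the 41 cells and 34.8 CPM in cluster 14 members.

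The members with high doublet scores comprised 9 in cluster 14, 8 in cluster 1 and 15 elsewhere. Without them *Myl7* stood at 76.5 CPM and *Twist1* at 60.1 CPM in the 27 members left in the remaining clusters, and *Lhx1* at 2.19 CPM in place of 14.6 CPM and *Pax2* at 13.1 CPM in place of 21.8 CPM. In the 19 members left in cluster 1, *Pax2* was at 46.9 CPM and *Pax8* at 60.0 CPM. In the 99 left in cluster 14, *Pax2* was at 92.2 CPM, *Pax8* at 85.3 CPM and *Lhx1* at 83.2 CPM.

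The 6 members in cluster 17, an unnamed cluster of 32 cells led by *Dppa5a*, *Utf1* and *Pou5f1*, differed from the rest. Over all members 3 of 13 pluripotent and germ cell genes were past the fold (median ratio 1.31), namely *Dppa5a*, *Pou5f1* and *Utf1*, and these 6 cells held 1426 of 1427, 192 of 202 and 142 of 143 of their UMIs in members. *Dppa5a*, a gene of pluripotent cells, stood at 3917 CPM in these 6 cells and at 0.308 CPM in cluster 14 members, and was found in 3.85% of all members. *Pou5f1*, the core pluripotency factor OCT4, stood at 527 CPM in the 6 cells and at 1.23 CPM in cluster 14 members. The 6 cells had no UMI of *Pax2*, *Pax8*, *Lhx1*, *Emx2* or *Sim1*, but *Epcam* at 195 CPM.

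**Figure D4:**
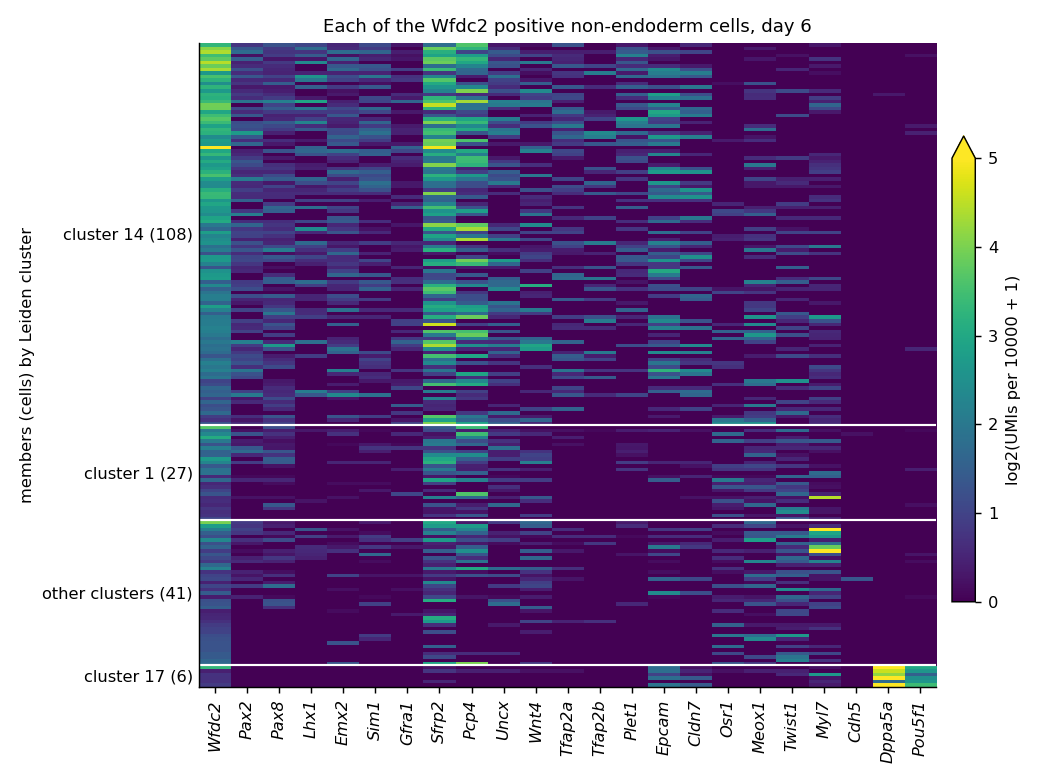
Level of selected genes (columns) in each of the 182 members (rows, ordered by Leiden cluster and then by *Wfdc2* UMIs), as log2 of UMIs per 10000 plus 1. The nephric genes on the left are concentrated in the 108 members of cluster 14, *Dppa5a* and *Pou5f1* in the 6 of cluster 17, and high *Myl7* in a few members of other clusters.

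Not every cell of cluster 14 met the rule. Of its 51 other cells, 24 held 1 or 2 *Wfdc2* UMIs, 22 held none and 5 held at least 3 with endoderm UMIs. These 51 cells had *Pax2* at 64.2 CPM and *Pax8* at 80.1 CPM, near the 88.1 and 79.2 CPM of the cluster's members, but *Lhx1* at 18.1 CPM against 75.8 CPM and *Sim1* at 18.9 against 62.2 CPM. *Osr1* stood at 73.3 CPM in them against 16.6 CPM, and *Wt1* at 59.7 against 7.09 CPM. Counted over the day, 197 cells held at least 2 of the 3 nephric genes and 108 of these (54.8%) were members. Of the 89 that were not, 49 had no *Wfdc2* UMI, 30 had 1 or 2 and 10 had at least 3 with endoderm UMIs.

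A like contrast was seen among the members of cluster 14 when they were divided by *Lhx1* after its values had been seen. The 53 cells with an *Lhx1* UMI had a median of 28370 UMIs and the 55 without one 22967 UMIs. *Pax2* was close in both, at 95.4 and 80.3 CPM (ratio 1.19, 0.935 to 1.51). *Osr1* stood at 0.592 CPM in cells with *Lhx1* and 34.0 CPM in those without, *Wt1* at 1.18 and 13.5 CPM, and *Foxc2*, a forkhead gene of somitic and nephrogenic mesoderm, had no UMI in the former and 14.8 CPM in the latter. *Sim1* was at 86.5 against 36.0 CPM (ratio 2.41, 1.76 to 3.33), *Plet1* at 81.7 against 36.0 CPM, and *Wnt11* at 10.7 against 1.28 CPM (ratio 8.30, 1.99 to 73.8). *Wfdc2* itself was at 675 against 428 CPM. *Vim* was at 167 CPM in cells with *Lhx1* and 354 CPM in those without, while *Epcam* was at 143 and 131 CPM.

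The same rule found different cells on the other days. It was met by 245 of 7202 cells at day 4 (3.40%), by 2513 of 7408 at day 5 (33.9%), by 182 at day 6 and by 17 of 8730 at day 11 (0.195%). Over all kept cells *Wfdc2* stood at 13.8, 113, 19.6 and 6.41 CPM on these days. Day 5 was thus the day of broad *Wfdc2* expression, with a UMI in 5553 of 7408 cells against 747 of 5850 at day 6. Median depth was similar at days 4 to 6 (25335 to 28400.5 UMIs) and lower at day 11 (12082 UMIs). Thinned to 5000 UMIs, *Wfdc2* was found in 5.69, 36.0, 4.32 and 0.977% of cells.

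At the earlier days few cells that met the rule held nephric genes. At least 2 of *Pax2*, *Pax8* and *Lhx1* were found in 0 of 245 cells meeting the rule at day 4, which allows a share of up to 1.22%, and in 35 of 2513 at day 5 (1.39%, 0.972 to 1.93%, against 0.878%, 0.636 to 1.18%, of other cells). At day 6 the share was 59.3% and at day 11 it was 5 of 17 cells (29.4%, 10.3 to 56.0%, against 2.32% of other cells). *Pax2* in cells meeting the rule stood at 0.0869, 0.997, 53.4 and 100.3 CPM from day 4 to day 11, and *Pax8* at 0.0869, 0.399, 52.0 and 24.1 CPM. *Lhx1* did not follow this course: at day 4 it was at 48.6 CPM in cells meeting the rule and 87.5 CPM in the others, at a stage when it is known from gastrulating mesoderm and endoderm. *Sim1* stood at 0, 0.133, 35.5 and 0 CPM, so that the 17 cells of day 11 had no UMI of it, though they held *Emx2* at 44.1 CPM.

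**Figure D5:**
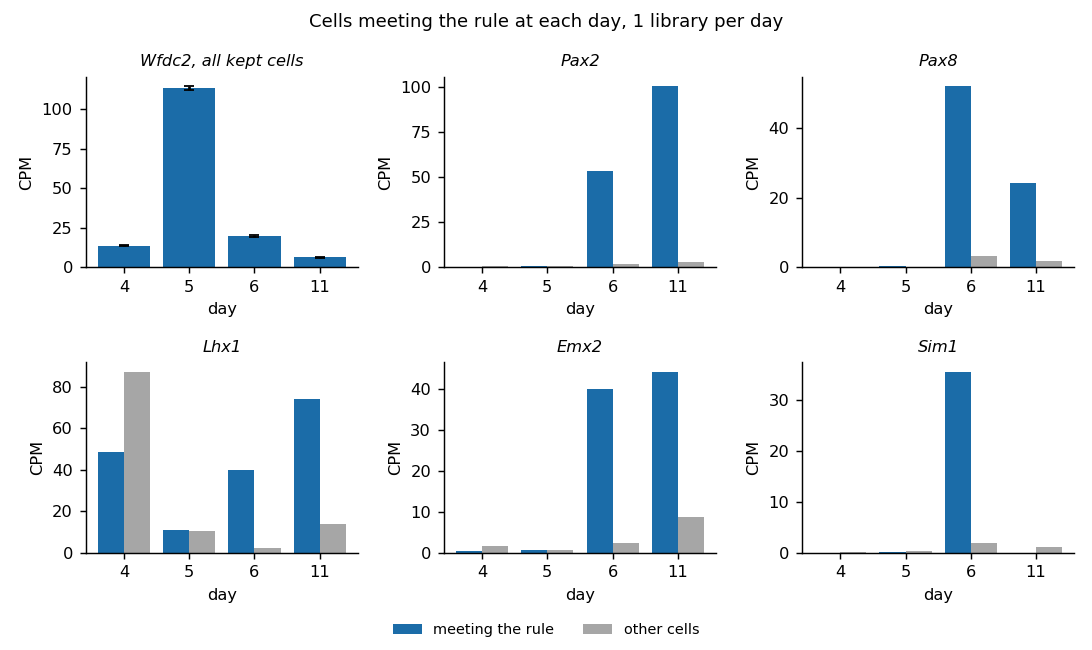
*Wfdc2* over all kept cells (first panel, with exact 95% Poisson intervals) and 5 nephric genes in cells meeting the rule and in other cells, in CPM (y axes) by day (x axes, 1 library each). *Wfdc2* is highest at day 5 (113 CPM), whereas *Pax2* in cells meeting the rule is at 0.997 CPM at day 5 and 53.4 CPM at day 6. The day 11 bars rest on 17 cells.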

How the data were processed

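The 4 libraries of Zx1 gastruloids (days 4, 5, 6 and 11) were made by the authors with a droplet 3′ kit. The authors deposited UMI counts per gene and cell, with no normalization and with cells already called. The submitters' processing notes name Cell Ranger 3.1.0 and mm10, and in the matrix headers the version is 6.0.1 at day 11 and 3.1.0 in the earlier libraries. The day 6 library held 6628 cells. Cells under 2000 UMIs (621) and further cells with a mitochondrial share of 20% or more (157) were left out. Libraries held between 149169498 and 236714826 UMIs.

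Levels were pooled CPM, the summed counts of a group scaled to a total of 1000000. Shares carry exact Clopper-Pearson intervals, levels exact Poisson intervals and ratios exact conditional binomial intervals at 95%, all for counting error only, since UMIs of 1 library are not replicates. Where a count was 0, the limit was set by 3 UMIs or 3 cells. Thinning drew 5000 UMIs per cell without replacement. Clustering used scanpy 1.11.5: normalization to 10000 UMIs, 1848 variable genes after 152 listed genes had been left out of 2000, 30 principal components, 20 neighbours and Leiden at resolution 1. A cluster took a list's name where at least 3 of its markers were raised (ratio of 2 or more, in at least 10% of its cells), more than of any other list, and no other list had more genes among its 10 leading genes. Doublets were left in and scored with the Scrublet method. The ratio computation was tested on simulated data.

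Named genes were those of the rule and of 19 gene lists, the 25 highest and 10 lowest by ratio among genes found in at least 10% of cells of the higher side (without mitochondrial, ribosomal protein and unnamed model genes), the 10 highest and lowest against *Wfdc2* cells with endoderm UMIs, the 3 leading genes of clusters holding at least 10% of members, and others said to be chosen after their values were seen. The members and lists were chosen with earlier results of these data known. Coordinates are from GENCODE vM21. The strand setting of the counting is not given in the sources used here, so overlapping genes may share counts. Some genes that the rule for named genes selects are not reported here.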

Additional observations from a re-analysis of the deposited data

How the results depend on the processing

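No paired analysis was possible because there was 1 library per day, and no replicate could be left out. The cause of the changes below was not tested unless the alternative itself sets them. A threshold of 2 *Wfdc2* UMIs gave 4.39% of cells, 117 genes past the fold and 45.1% of members with at least 2 of *Pax2*, *Pax8* and *Lhx1*, and a threshold of 5 UMIs gave 2.22% of cells and 75.4%. Without the condition on the endoderm genes the share of cells was 3.83%, the epithelium median 1.87, and 91 genes were higher and 68 lower, where 73 and 106 were as reported. With 0 UMIs of *Ttr*, *Apoa1*, *Apoa2*, *Afp* and *Hnf4a* also required, 168 members were left (2.87% of cells), and 58.9% of them held at least 2 nephric genes. Without the 8% highest doublet scores 334 genes were past the fold, where 179 were in the values as reported. Thinning gave 311 genes, 10.4% of members with at least 2 nephric genes, a duct median of 1.81 and an epithelium median of 1.44. The mean of each cell's CPM gave 292 genes and a duct median of 1.79. Adding 1 CPM in place of 10 gave 992 genes and medians of 3.04 (duct), 2.12 (epithelium) and 1.18 (surface ectoderm), and adding 50 CPM gave 23 genes and medians of 1.21 (duct) and 1.06 (epithelium). Chosen after the data were seen, cluster 14 members alone were 1.87% of cells, with 454 genes, 76.9% and a duct median of 2.14. Over 13 alternatives the ratios of *Pax2*, *Pax8* and *Lhx1* were 2 or more in 12, the exception being 50 CPM added, where they were 1.99, 1.91 and 1.71. The duct and epithelium medians were above 1 in each alternative run for them, and the surface ectoderm median was 1 when thinned. Depth limits single genes of few UMIs, such as *Ret* and *Wnt9b*.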
